A study of Mus musculus with 12 samples.

Results

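The laminin chains Lama2, Lama4, Lama5, Lamb1, Lamb2 and Lamc1 and the integrin subunits Itga3, Itga6, Itga7 and Itgb4 were examined in tumor cells with high and low activity of EGFRvIII, a constitutively active form of the epidermal growth factor receptor. These 10 genes, out of 19938 measured, were taken by name. On the array each of the 10 had 1 probe set that was paired with its symbol alone, so no choice among probe sets was needed. Both tumor types began as subventricular zone progenitors of Ink4a/Arf null mice that received human EGFRvIII, and each is a line that had been passaged as a brain tumor in syngeneic mice and regrown as tumorspheres. ZsGreen-tagged cells of either line were injected into the brains of FVB mice, at 2 µl of 200000 cells per µl, and recovered by sorting after papain digestion, from 6 pEGFR-Hi and 6 pEGFR-Lo tumors, each of its own mouse. Mice were taken near the median survival of their own group, which came sooner for pEGFR-Hi, so tumor line and time after injection cannot be told apart. Each tumor type was 1 line, and the spread given here is among mice and not among lines. Age and sex of the mice are not stated in the sources used here.

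Laminins are large secreted trimers of an alpha, a beta and a gamma chain that form the scaffold of basement membranes, in the brain chiefly along blood vessels and beneath the pia. The integrins alpha 3, alpha 6 and alpha 7 pair with beta 1, and alpha 6 also pairs with beta 4, to bind laminin at the cell surface. Beta 4 has alpha 6 as its partner and links laminin to the cytoskeleton through plectin and dystonin. Neural progenitors and glioma cells use these receptors to hold on to vessel walls and to migrate along them.

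The deposited values are log2 RMA values, in which every array was brought to the same distribution, and a shift in how much RNA a cell holds would not show. Array medians lay between 4.81 and 4.88, and the lowest correlation within a tumor type was 0.991 in pEGFR-Hi and 0.985 in pEGFR-Lo, against at most 0.959 between them. An earlier analysis of these arrays had set pEGFR-Lo replicates 3 and 6 apart by interferon-stimulated genes, and calls of members are given without them where they change. The background level was set at 4.10, below which 95% of 1027 olfactory receptor genes had their mean. All 8 markers of neural progenitors were above it, and 3 of them, Fabp7, Slc1a3 and Ptprz1, were called toward pEGFR-Lo. Their log2 differences, pEGFR-Hi minus pEGFR-Lo, were -1.37, -3.77 and -2.08. Sox2, at 0.51 and without overlap of the groups, and Olig2, at 0.26, leaned toward pEGFR-Hi at an unadjusted p under 0.05 from limma. The mean level of the list, which holds these large differences, was 9.10 to 9.41 in pEGFR-Hi and 9.96 to 10.15 in pEGFR-Lo. A gene was called at an adjusted p under 0.01 from limma and at least 2-fold. Cdkn2a, the locus deleted in both lines, was at 5.26 ± 0.13 in pEGFR-Hi and 5.36 ± 0.14 in pEGFR-Lo (SD, n = 6 mice each), and it is unknown which of its exons the probes cover, so it checks neither label.

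Of the 6 laminin chains, Lama4 was higher in pEGFR-Lo and no chain was called higher in pEGFR-Hi by limma or by SAM, while of the 4 integrin subunits Itga7 and Itgb4 were higher in pEGFR-Hi. The other 7 members were not called. At the same limits 3.99% of all genes were called higher in pEGFR-Hi and 5.06% higher in pEGFR-Lo. SAM, the method of the study, gave the same counts of members beside 4.08% and 5.07% of all genes. At an unadjusted p under 0.05, 1 chain leaned toward pEGFR-Hi and 1 toward pEGFR-Lo, as did 2 and 1 of the integrin subunits, while 23.0% and 19.8% of all genes did so. With an adjusted p under 0.05 and no fold limit, Lamb2 joined the members higher in pEGFR-Hi, making 3 beside 19.4% of all genes, and Itga6 joined those higher in pEGFR-Lo, making 2 beside 16.6%. The median of the absolute log2 differences was 0.53 over the members and 0.18 over all genes. Of the 10 members, 9 were above background, against 13783 of all 19938 genes, and this was not allowed for. The members were also chosen with earlier results of these data known, so the 2 medians are not a test of the members.

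**Figure D1:**
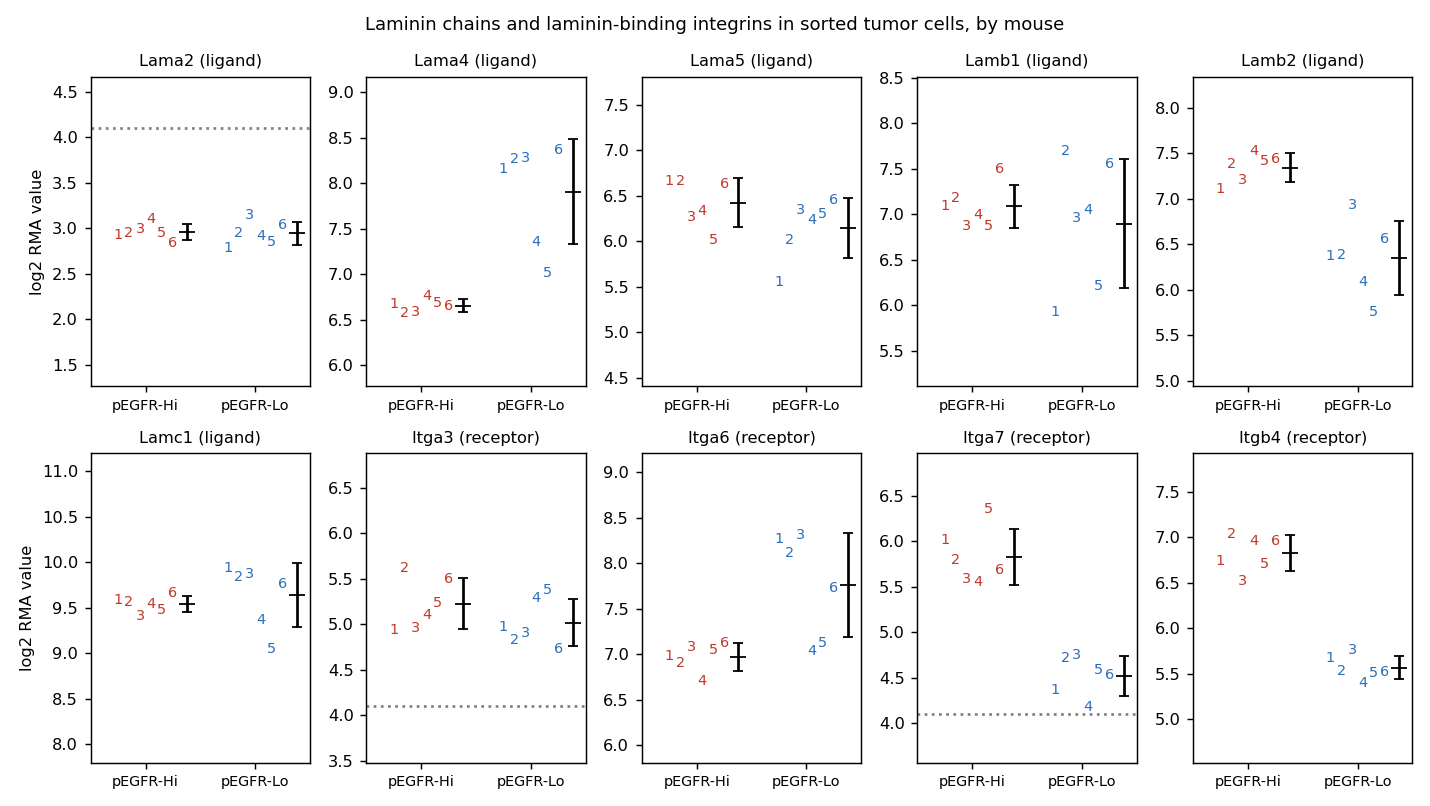
Log2 RMA value (y axis, each panel spanning the same range) of 10 laminin and integrin genes by tumor type (x axis, 6 mice each). Digits are replicate numbers, bars show mean and SD, and the dotted line is the background level of 4.10. Lama4 in pEGFR-Lo splits into replicates 4 and 5, at 7.35 and 7.01, and 4 mice above 8, and all Lama2 values lie below background.

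Lama4, the alpha chain of the laminins of vessel walls, was 2.38-fold higher in pEGFR-Lo. Its lowest, median and highest values were 6.57, 6.66 and 6.76 in pEGFR-Hi. In pEGFR-Lo replicates 1 to 6 it was at 8.16, 8.27, 8.28, 7.35, 7.01 and 8.36. The groups did not overlap, and the pEGFR-Hi mice lay within 0.19 of each other, whereas replicates 4 and 5 of pEGFR-Lo lay apart from the other 4 mice, toward pEGFR-Hi. The log2 difference, pEGFR-Hi minus pEGFR-Lo, was -1.25 ± 0.201 (SE; 95% interval -1.68 to -0.82; adjusted p = 1.06e-04 from limma). In sorted pools of cells, fewer cells that make a transcript and less of it per cell cannot be told apart.

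Lama5, the alpha chain of mature vessel and epithelial basement membranes, had a lowest, median and highest value of 6.01, 6.48 and 6.66 in pEGFR-Hi and 5.55, 6.27 and 6.45 in pEGFR-Lo. These groups overlapped, with pEGFR-Lo replicate 1 lowest, and the difference of 0.28 had a 95% interval from -0.05 to 0.60 (adjusted p = 0.187 from limma). Within each mouse, Lama4 minus Lama5 was 0.23 ± 0.30 in pEGFR-Hi and 1.75 ± 0.71 in pEGFR-Lo (SD, n = 6 mice each), without overlap. This within-array difference differed between the groups by -1.53 on the log2 scale (two-sided exact permutation p = 0.00216, the smallest that 6 against 6 mice allow, and 0.00325 when adjusted over the 3 pairs compared in this way, all chosen after their values were seen). Lama2, the alpha chain of muscle and of astrocyte endfeet, was not above background in any of the 12 mice, at 2.84 to 3.10 in pEGFR-Hi and 2.78 to 3.14 in pEGFR-Lo.

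The beta chains are paralogs that replace each other in laminin trimers, and their upstream windows are shown so that the pair can be compared. Lamb2 and Lamb1 were paired after their values were seen. Of the 10 genes, 5 had an entry in the RefSeq promoter table of GRCm38.p6, and Lama4, Lamc1, Itga6, Itga7 and Itgb4 had none. Each window is the 250 bases before the annotated start, on the plus strand, at chr12:31265043-31265292 for Lamb1 and chr9:108479612-108479861 for Lamb2. Capitals mark the GC box, GGGCGG or CCGCCC, the letters bound by Sp family factors.
Lamb1: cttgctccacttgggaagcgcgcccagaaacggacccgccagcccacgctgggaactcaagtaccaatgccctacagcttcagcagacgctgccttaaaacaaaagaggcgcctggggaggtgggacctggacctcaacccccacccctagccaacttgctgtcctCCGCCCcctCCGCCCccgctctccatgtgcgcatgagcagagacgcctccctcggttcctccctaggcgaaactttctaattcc
Lamb2: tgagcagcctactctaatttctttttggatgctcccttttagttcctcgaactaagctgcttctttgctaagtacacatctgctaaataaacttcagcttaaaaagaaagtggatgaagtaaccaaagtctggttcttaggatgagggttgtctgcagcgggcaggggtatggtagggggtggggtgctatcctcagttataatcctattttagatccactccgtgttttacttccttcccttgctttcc
The Lamb1 window held 2 such matches and 14 CG dinucleotides with a GC content of 62.0%, and the Lamb2 window held 0 matches and 3 CG dinucleotides with a GC content of 43.6%. Over all 32851 windows of this length, 32.7% held a GC box on either strand and the median GC content was 52.4%. A TATA box, TATAAA or TTTATA, was in neither window and in 12.4% of all windows. These matches describe the letters alone and were not set against the array values.

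Lamb2, the beta chain of vessel and synaptic laminins, lay just short of the 2-fold limit, at a 1.99-fold higher level in pEGFR-Hi. Its lowest, median and highest values were 7.10, 7.40 and 7.52 in pEGFR-Hi and 5.75, 6.38 and 6.93 in pEGFR-Lo. The groups did not overlap, and the highest pEGFR-Lo mouse was replicate 3. The means were 7.34 ± 0.16 and 6.35 ± 0.40 (SD, n = 6 mice each), and their difference had a standard error of 0.155 and a 95% interval of 0.67 to 1.33 (adjusted p = 8.12e-05 from limma). The log2 difference passed 2-fold under 9 other settings, among them centring of the arrays on their medians (1.02) and array weights (1.03). The others left out pEGFR-Hi replicate 1 (1.04) or 3 (1.03), pEGFR-Lo replicate 3 (1.11) or 6 (1.04), both of the latter together (1.20), or pEGFR-Lo replicate 1 or 2, where it only just passed.

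Lamb1, the beta chain made early in development and by many cell types, was not called. Its lowest, median and highest values were 6.87, 7.04 and 7.50 in pEGFR-Hi. In pEGFR-Lo replicates 1 to 6 the values were 5.92, 7.69, 6.96, 7.04, 6.21 and 7.55. The pEGFR-Lo mice lay both below and above all the pEGFR-Hi mice, with replicates 1 and 5 below them and replicates 2 and 6 above, and the difference of 0.19 had a 95% interval of -0.35 to 0.73 (adjusted p = 0.627 from limma). Within each mouse, Lamb2 minus Lamb1 was 0.26 ± 0.25 in pEGFR-Hi and -0.55 ± 0.66 in pEGFR-Lo (SD, n = 6 mice each). The difference of 0.80 between the groups had a two-sided exact permutation p = 0.0260 (0.0260 when adjusted over the 3 pairs), with overlapping groups. As the pair was chosen after its values were seen, this p is favored to be low.

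Lamc1, the gamma chain of nearly all laminins of the brain, was not called. Its lowest, median and highest values were 9.41, 9.55 and 9.66 in pEGFR-Hi and 9.05, 9.80 and 9.94 in pEGFR-Lo. In pEGFR-Lo replicates 4 and 5, at 9.36 and 9.05, it was below all the pEGFR-Hi mice, and in the other 4 above them all. The difference of -0.10 had a 95% interval from -0.38 to 0.19 (adjusted p = 0.647 from limma).

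**Figure D2:**
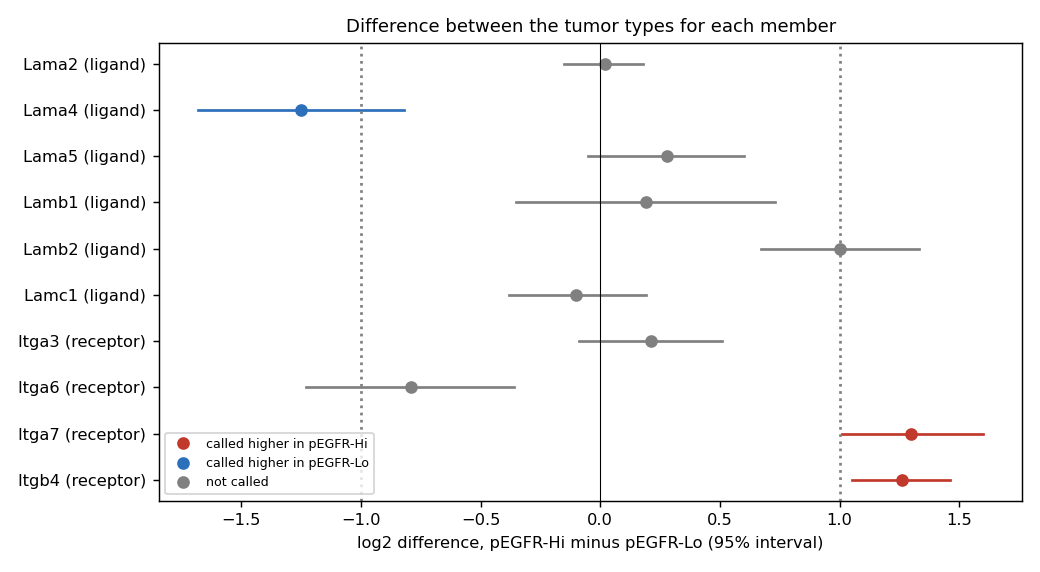
Difference of log2 means, pEGFR-Hi minus pEGFR-Lo (x axis), for each laminin chain and integrin subunit (y axis). Points are differences of means over 6 mice each, bars are 95% intervals from limma, and dotted lines mark 2-fold. Itga7 and Itgb4 lie beyond 2-fold toward pEGFR-Hi, Lama4 lies beyond it toward pEGFR-Lo, and Lamb2 lies on the line at 1.99-fold.

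Among the receptors, Itgb4, the integrin subunit of hemidesmosomes, was 2.39-fold higher in pEGFR-Hi. Its lowest, median and highest values were 6.52, 6.85 and 7.04 in pEGFR-Hi and 5.40, 5.52 and 5.76 in pEGFR-Lo. The gap between the groups was wider than the range within either, and the difference was 1.26 ± 0.0979 (SE; 95% interval 1.05 to 1.46; adjusted p = 4.20e-08 from limma). Itga7, best known as the laminin receptor of muscle, was 2.47-fold higher in pEGFR-Hi. Its values ran from 5.55 over a median of 5.73 to 6.35 in pEGFR-Hi and from 4.18 over 4.56 to 4.75 in pEGFR-Lo, the latter near the background level. The groups did not overlap, and the difference was 1.30 ± 0.139 (SE; 95% interval 1.01 to 1.60; adjusted p = 1.42e-06 from limma).

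Itga6, the alpha partner of both beta 1 and beta 4 and a marker of neural and glioma stem cells, was at a lower level in pEGFR-Hi, by 1.73-fold, and was not called. Its lowest, median and highest values were 6.70, 7.01 and 7.12 in pEGFR-Hi. In pEGFR-Lo replicates 1 to 6 it was at 8.27, 8.11, 8.31, 7.03, 7.12 and 7.73. Replicates 4 and 5 of pEGFR-Lo lay within the pEGFR-Hi range and the other 4 above it, and the difference was -0.79 ± 0.205 (SE; 95% interval -1.23 to -0.36; adjusted p = 0.00580 from limma). Over the settings tried the adjusted p for Itga6 ran from 7.58e-04 to 0.0327. The differences of Itgb4 and its partner Itga6 had opposite signs, and within each mouse Itgb4 minus Itga6 was -0.15 ± 0.30 in pEGFR-Hi and -2.20 ± 0.47 in pEGFR-Lo (SD, n = 6 mice each). The groups did not overlap in this within-array difference, which changed by 2.05 (two-sided exact permutation p = 0.00216, the smallest possible, and 0.00325 adjusted over the 3 pairs). This pair was chosen after the opposite signs were seen, which favors a low p, and the adjustment does not correct for that choice. Itga3, an alpha partner of beta 1, was at 4.94, 5.16 and 5.62 in pEGFR-Hi and at 4.73, 4.93 and 5.37 in pEGFR-Lo, as lowest, median and highest value. These groups overlapped, and the difference of 0.21 had a 95% interval of -0.09 to 0.51 (adjusted p = 0.283 from limma).

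In all, 4 members had groups that did not overlap, Lamb2, Itga7 and Itgb4 toward pEGFR-Hi and Lama4 toward pEGFR-Lo, while 12.2% and 11.1% of all genes did so in these directions. The spread was larger in pEGFR-Lo for 7 of the 10 members, and for 56.9% of all genes. The median SD of the members was 0.18 in pEGFR-Hi and 0.34 in pEGFR-Lo, whereas over all genes it was 0.17 and 0.18.

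**Figure D3:**
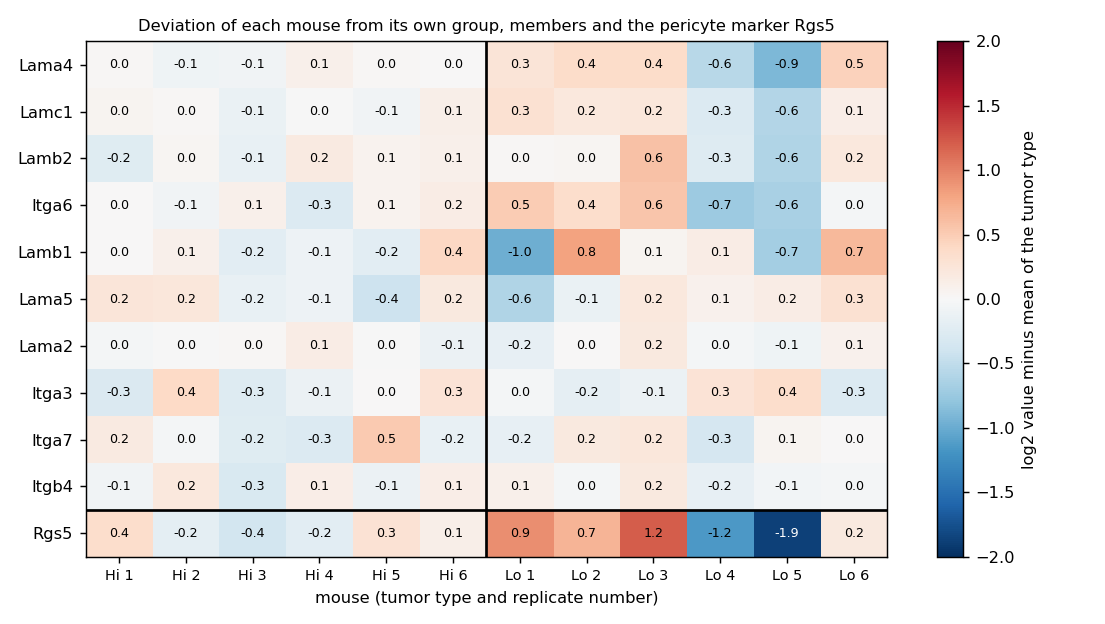
Log2 value of each mouse (x axis, Hi for pEGFR-Hi and Lo for pEGFR-Lo with the replicate number) minus the mean of its tumor type, for the 10 members and the pericyte marker Rgs5 (y axis); red is above and blue below that mean. Lama4, Lamc1, Lamb2, Itga6 and Rgs5 are all below the mean in pEGFR-Lo replicates 4 and 5, and so, by less, are Lama2 and Itgb4. Itga3 and Lama5 are above it in both, and Lamb1 and Itga7 are mixed. Rgs5 is the only pericyte marker plotted.

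Within pEGFR-Lo, replicates 4 and 5 were the lowest of the 6 mice for Lama4, Lamc1, Lamb2 and Itga6. The same mice were lowest for Rgs5, a marker of pericytes, the mural cells of capillaries, at 6.44 and 5.72 against 7.79 to 8.80 in the other 4 mice. In pEGFR-Hi, Rgs5 was at 3.61 to 4.33, so that by group means pEGFR-Lo exceeded it at least 11.2-fold (limma, adjusted p = 4.25e-06). Of the 12 markers of pericytes and smooth muscle, Rgs5 was called toward pEGFR-Lo and the aminopeptidase Anpep toward pEGFR-Hi, and 10 were not called. Kcnj8, a pericyte potassium channel subunit, was also lowest in replicates 4 and 5, at 3.55 and 4.09 against 4.89 to 5.28 in the other pEGFR-Lo mice and 4.39 to 4.89 in pEGFR-Hi. Genes of other kinds shared this order. The microglial marker P2ry12 was at 6.24 and 5.69 against 6.56 to 6.81, and Itgb1 at 9.75 and 9.67 against 9.82 to 10.04. The reverse order also occurred, with replicates 4 and 5 highest for the member Itga3, at 5.29 and 5.37 against 4.73 to 4.97. They were highest for the pericyte marker Vtn as well, at 4.30 and 4.38 against 3.96 to 4.22. The defining pericyte receptor Pdgfrb was not above background in either tumor type, at a mean of 3.95 and 3.84. The mean level of the whole list ran from 4.46 to 4.93 in pEGFR-Hi and from 4.53 to 4.90 in pEGFR-Lo. Of 11 measured endothelial markers, 0 were called by limma or SAM (1 in each direction at an unadjusted p under 0.05), and Pecam1, Cdh5, Tek, Tie1, Esam, Emcn and Slco1a4 were not above background. Their mean level was 3.50 to 3.85 in pEGFR-Hi and 3.64 to 3.85 in pEGFR-Lo. Of 8 fibroblast and meningeal markers, 0 were called by limma or SAM (2 toward pEGFR-Hi and 1 toward pEGFR-Lo at an unadjusted p under 0.05), and Dcn, Lum, Slc6a13 and Ogn were not above background. The part of Rgs5-expressing cells in the level of Lama4 or Itga6 was not tested.

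Markers of the other cell types that the sort could hold were read against the same shares, 3.99% and 5.06% of all genes. Of 10 markers of microglia and macrophages P2ry12 was called toward pEGFR-Lo, while Aif1, Csf1r, Ptprc, Itgam and Mrc1 were not above background. Their mean level was 3.68 to 3.88 in pEGFR-Hi and 3.82 to 4.22 in pEGFR-Lo. Of 6 astrocyte markers Gfap was called toward pEGFR-Hi and Slc1a2 toward pEGFR-Lo, and of 5 measured oligodendrocyte and 8 neuronal markers 0 were called by limma or SAM (1 and 3 toward pEGFR-Lo at an unadjusted p under 0.05). The mean level of the astrocyte list was 5.17 to 5.66 in pEGFR-Hi and 5.49 to 5.91 in pEGFR-Lo, that of the oligodendrocyte list 4.12 to 4.24 and 4.17 to 4.68, and that of the neuronal list 3.53 to 3.66 and 3.67 to 3.92.

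The genes whose values followed Lama4 most closely over the 12 mice, once the mean of each tumor type was removed, were Pth2r, a parathyroid hormone receptor (r = 0.97), Prkg1, a kinase driven by cyclic GMP (r = 0.95), and Tmtc4 (r = 0.94), out of 13782 other genes above background. Pth2r and Prkg1 had log2 differences of -2.96 and -1.92, the same sign as Lama4, and Tmtc4 had one of 0.39. For Itga7 the closest were Gpam (r = 0.90), Coq7 (r = 0.86) and Scarf2 (r = 0.86), whose differences of -1.18, -0.17 and -0.23 had the sign opposite to that of Itga7. These correlations describe arrays that share a tumor type and a normalization. Lama4 had an SD of 0.07 in pEGFR-Hi and 0.58 in pEGFR-Lo, so its correlations rest mainly on the pEGFR-Lo mice, where replicates 4 and 5 lay apart. The genes named are the highest of many compared, and how high such values run by chance was not tested.

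With the 2-fold limit, other genes of the pathway were called in much the same share as all genes. The 77 measured genes covered laminin and netrin chains, receptors with their membrane partners, basement membrane and hemidesmosome genes, intracellular adaptors and kinases, and dystroglycan genes. Of these, 2 were called higher in pEGFR-Hi and 5 higher in pEGFR-Lo, beside 3.99% and 5.06% of all genes. The other 70 were not called. Without a fold limit, a larger share of the 77 than of all genes leaned toward pEGFR-Lo. At an unadjusted p under 0.05 from limma, 31 leaned toward pEGFR-Lo and 14 toward pEGFR-Hi, beside 19.8% and 23.0% of all genes. Of the 77, 69 were above background, against 13783 of all 19938 genes, and this was not allowed for. The median log2 difference of the 77 genes was -0.09, against 0.01 over all genes. Of 4 other laminin chains, 0 were called by limma or SAM (1, Lamb3, at an unadjusted p under 0.05), with Lama1, Lamb3 and Lamc3 at differences of -0.07, -0.46 and -0.09 and Lama3 not above background.

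The netrins, secreted or membrane-bound relatives of laminin chains, had 2 of 3 measured members called higher in pEGFR-Lo, beside 5.06% of all genes. The third, Ntn1, was 1.80-fold higher in pEGFR-Lo without overlap of the groups (adjusted p = 3.29e-05 from limma) and was not called. Ntn4, which binds laminin gamma chains in basement membranes, was at 5.02, 5.26 and 5.49 in pEGFR-Hi and 6.69, 6.93 and 7.31 in pEGFR-Lo, as lowest, median and highest value. The groups did not overlap, with pEGFR-Lo above by 3.26-fold (limma, adjusted p = 1.34e-08). Ntng1, a membrane-anchored netrin of axons, was 2.25-fold higher in pEGFR-Lo.

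Of 7 other receptors, Itga1, a subunit of a collagen and laminin receptor, was higher in pEGFR-Lo, at 5.18 to 5.55 against 3.39 to 4.38 in pEGFR-Hi. By group means this was at least 2.47-fold (adjusted p = 1.66e-06 from limma), although the pEGFR-Hi mice with values up to 4.38 lay partly above background. Itgb1, the beta partner of alpha 3, alpha 6 and alpha 7, had a difference of -0.33 ± 0.0852 (SE), a 1.25-fold higher level in pEGFR-Lo with an adjusted p = 0.00621 from limma, and did not pass the 2-fold limit. Dag1, which encodes dystroglycan, the main laminin receptor outside the integrin family, was at 8.56 to 8.90 in pEGFR-Hi and 9.44 to 9.93 in pEGFR-Lo. Its groups did not overlap, but at 1.80-fold (adjusted p = 2.51e-06 from limma) it was not called. Of 6 tetraspanins, which hold laminin-binding integrins in membrane domains, 0 were called by limma or SAM (1 toward pEGFR-Hi and 2 toward pEGFR-Lo at an unadjusted p under 0.05), with Cd151 at a difference of -0.52.

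Of 12 basement membrane partners, Sparc, a calcium-binding matrix protein, was at 9.70 to 10.30 in pEGFR-Hi and 11.90 to 12.10 in pEGFR-Lo, a 3.99-fold difference (limma, adjusted p = 5.00e-10), and 11 were not called. Nid1 and Nid2, which link laminin to collagen IV, had differences of -0.20 and 0.79, Hspg2, the proteoglycan perlecan, had 0.04, and Agrn, the proteoglycan agrin, had -0.35. Of 5 hemidesmosome genes, Dst, which encodes dystonin, was 2.04-fold higher in pEGFR-Lo, a sign opposite to that of Itgb4. Which forms of dystonin this value covers is not known. Dst fell short of 2-fold without pEGFR-Hi replicate 4 (-0.98) or without pEGFR-Lo replicate 1 (-0.94), 3 (-0.97) or 4 (-0.99). Plec, which encodes plectin, had a difference of 0.07.

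Inside the cell, 1 of 20 integrin adaptors and kinases was called. Parvb, an actin-binding partner of the integrin-linked kinase, was at 6.10, 6.98 and 7.73 in pEGFR-Hi and 4.19, 4.61 and 4.85 in pEGFR-Lo, as lowest, median and highest value. The groups did not overlap, and Parvb was 5.40-fold higher in pEGFR-Hi (adjusted p = 4.75e-07 from limma). Of 11 genes of the dystroglycan complex, the syntrophin Sntb2 was 2.53-fold higher in pEGFR-Hi, and of 9 genes that build the laminin-binding sugar of dystroglycan 0 were called by limma or SAM (2 toward pEGFR-Hi and 3 toward pEGFR-Lo at an unadjusted p under 0.05). Of the complex, the utrophin Utrn passed the limits toward pEGFR-Hi without pEGFR-Lo replicate 1 (1.01) or 4, and the sarcoglycan Sgce toward pEGFR-Lo without pEGFR-Hi replicate 4 (-1.04) or 6 (-1.01), both named after their values were seen.

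**Figure D4:**
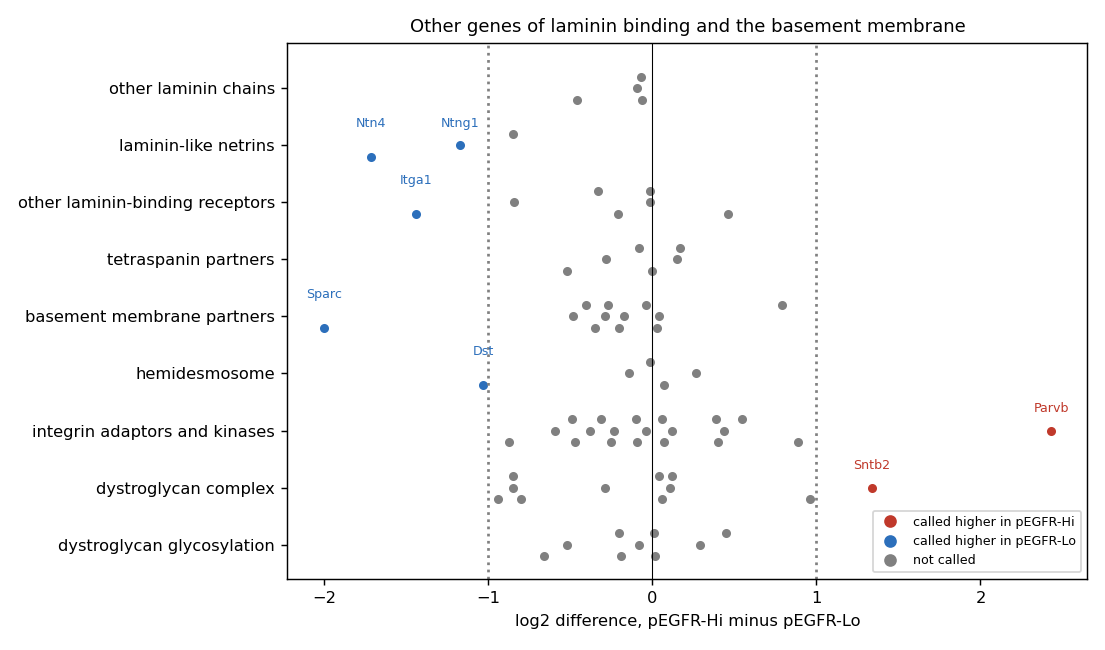
Difference of log2 means, pEGFR-Hi minus pEGFR-Lo (x axis), for 77 other genes of laminin binding, the basement membrane and intracellular adhesion partners, by role (y axis). Each point is 1 gene, called genes are colored and named, the 2-fold limits are dotted, and vertical scatter within a role carries no value. Parvb and Sntb2 are called toward pEGFR-Hi and 5 genes toward pEGFR-Lo.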

How the data were processed

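RNA of sorted tumor cells was hybridized to Affymetrix Mouse Gene 1.0 ST arrays, 1 per mouse. The authors deposited log2 values made with RMA in Affymetrix Expression Console, version not given in the sources used here. Groups and replicate numbers came from the sample titles. The array annotation paired 21789 probe sets with 1 symbol, 1621 with several and 12146 with none, and only the first were used. Of these, 21698 matched the RefSeq annotation of GRCm38.p6 by Entrez ID and took its symbol. No source used here names a genome build for the array, and coordinates belong to the promoter table alone. Where a gene had several probe sets, the brightest over all arrays was kept, which left 19938 genes, 13783 of them with a group mean above background.

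Groups were compared across all genes by the lmFit and eBayes functions of limma 3.58.1, run under R 4.3.3, with Benjamini-Hochberg adjustment, and within-array differences of 2 genes with an exact permutation test over mice. Calls were made at an adjusted p under 0.01 and 2-fold, the limits the study set for SAM, and SAM was run with 100 permutations as an alternative. Tables were read with the R package data.table, version 1.17.8, and plots drawn by matplotlib 3.10.9 (Python 3.11.15). The limma and SAM steps were tested on simulated data with independent noise, equal spread in both groups and added log2 changes of 1.5 or 2. Each step called 98 of 100 genes changed by 1.5, 99 of 100 changed by 2, and 0 unchanged genes. These changes were larger than any member difference, so the simulation does not cover changes of the members' size or unequal spread. Other alternatives were 2 further normalizations, eBayes with trend and robust, array weights, the replicate number as a block, an adjusted p under 0.05 without a fold limit, a background filter, averaged probe sets per gene, and omission of each array in turn, or both pEGFR-Lo replicates 3 and 6.

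The members and gene lists were chosen with earlier results of these data known. The named genes are all members, the other laminin chains, their main partners, called list genes (up to 4 a list and direction), and the 3 genes most like the member with the largest difference each way. Other genes are given as markers or named after their values were seen (Utrn, Sgce). List genes without a probe set of their own, 10 of 87, were not analysed here. The number of arrays limits the precision.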

Additional observations from a re-analysis of the deposited data

How the results depend on the processing

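Itga7, Itgb4 and Lama4 were called under all 22 alternatives, with log2 differences of 1.20 to 1.36, 1.21 to 1.32 and -1.43 to -1.04. Not all of these could have failed. Averaging probe sets left the values of members as they were, since each had 1 probe set. The looser limit without a fold could only add calls. Lamb2, next to the 2-fold limit, was called under 10 of 22, with differences of 0.88 to 1.20, and Itga6 under 1 of 22, the one without a fold limit (-0.94 to -0.66). With the fold limit dropped and an adjusted p under 0.05, all 4 counts rose: members to 3 toward pEGFR-Hi and 2 toward pEGFR-Lo, and the other 77 pathway genes to 12 and 28, beside 19.4% and 16.6% of all genes. The 28 toward pEGFR-Lo are a larger share of the 77 than that of all genes. Lama2 and Lamb1, neither called, changed sign near 0: Lama2 was at -0.01 without pEGFR-Hi replicate 4, -0.02 without pEGFR-Lo replicate 1 and 0.00 without pEGFR-Lo replicate 5, and Lamb1 was at 0.00 without pEGFR-Lo replicate 1, within 0.00 to 0.35 when single arrays were left out. The 3 pair differences kept an exact permutation p under 0.05 in all 15 settings run, the highest being 0.0498 for Lamb2 minus Lamb1. Averaging probe sets was among the 15 and left the pair values as they were. These pairs were chosen after their values were seen, which favors a low p in every setting. Adjustment over the 3 pairs does not correct for that choice. With the replicate number as a block, the members called numbered 2 toward pEGFR-Hi and 1 toward pEGFR-Lo, as without it. Arrays of the same number correlated at -0.14 to 0.10 after removal of group means, so the values gave no sign of a general pairing by number. Among the pEGFR-Hi arrays, only replicate 5 was closest to the pEGFR-Lo array of its own number. Whether arrays of 1 number shared a handling step was not tested. The lower levels of Itga7 in pEGFR-Lo and of Lama2 lay near or below background, which limits what can be read from them.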
